A study of Caenorhabditis elegans with 7 samples.

Results

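The genes described here make the surface and the shell of the C. elegans egg or control the last step of oocyte development. They were 10 genes chosen by name, of 46778 in the deposited table, namely oma-1, oma-2, egg-1, egg-2, egg-3, cbd-1, cpg-1, cpg-2, perm-2 and perm-4, and all 10 were found. RNAseq was performed on whole L4 larvae, the last larval stage, of N2, the standard laboratory wild type, which both groups share. The 4 WT Late libraries came from an N2 population carried through at least 50 generations by keeping only progeny laid on day 3 of adulthood, and the 3 WT libraries from N2 animals under no selection. All animals were synchronized as L1 larvae and fed OP50 bacteria on streptomycin plates. The sources describe a single selected population, not several lines, so how much selected lines would differ from each other cannot be read from these libraries.

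In the hermaphrodite of C. elegans the germline first makes sperm, during L4, and then switches to oocytes around the last molt. Oocytes are loaded with the parts of the eggshell before fertilization, and the shell is then built in layers, from an outer vitelline layer through a chitin layer to a layer of chondroitin proteoglycans, with a permeability barrier below. The study asked how the transcripts of L4 animals differ after late selection, and here that question is put to these 10 genes. In whole animals, fewer oocytes, less RNA per oocyte and a difference in stage at collection cannot be told apart. The paper reports a modest delay of the first egg and slightly smaller adults in WT Late, and no significant change in total progeny.

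Reads on genes lay between 17553893 and 20961698 per WT Late library and between 19484976 and 20423033 per WT library. Values are FPKM, reads scaled to gene length and a size per library, rescaled so that the typical gene is level across libraries (median of ratios), and are called rescaled FPKM. The size behind the deposited FPKM was 1.01, 0.917, 1.79 and 0.675 times the reads on genes in WT Late replicates 1 to 4. It was 0.925, 1.14 and 1.17 times in WT replicates 1 to 3. The deposited values thus carried a scaling other than the reads on genes. The rescaling factors were computed from the deposited FPKM itself, so this size cancels between libraries in rescaled FPKM. It remains in the filter on low values and in ratios taken from the deposited FPKM plus a pseudocount. WT Late replicates 2 and 3 stood apart. Replicate 2 had reads on 11069 genes and replicate 3 on 18490, against 14418 and 14544 in WT Late replicates 1 and 4 and 15723 to 16297 in the WT libraries. Ribosomal protein genes took 25.6%, 33.4%, 13.2% and 35.6% of the reads in WT Late replicates 1 to 4, and 24.1% to 29.8% in WT.

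All 10 genes had reads in every library and passed the filter on low values (FPKM 0.5 or more in 3 or more libraries). Their levels spanned a wide range. Among 20222 protein-coding genes they lay between the 46.2th percentile, for egg-2 in one library, and the 96.3th, for perm-2. The order of the levels in WT, from the highest mean, was perm-2, cpg-2, perm-4, cpg-1, egg-1, cbd-1, oma-1, oma-2, egg-3 and egg-2. Neighbours whose WT ranges overlapped were perm-2 and cpg-2, egg-1 and cbd-1, and oma-1 and oma-2. Across all 7 libraries, only cpg-2 over perm-4 and cpg-1 over egg-1 kept this order 7 of 7 times. Together cpg-2 and perm-2 made up 48.6% to 70.8% of the summed rescaled FPKM of the 10 genes in WT Late libraries and 56.9% to 66.4% in WT libraries.

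No gene of the 10 passed an adjusted p under 0.05 in the comparison of WT Late with WT, where 0.849% of the 13194 tested genes did, 0.182% in the lower direction (limma with Benjamini-Hochberg adjustment). At an unadjusted p under 0.05, 1 gene of the 10 was lower, perm-4, against 4.81% of all tested genes, and limma voom on reads recovered from FPKM also called 0 of the 10, where it called 0.621% of all tested genes. All 10 log2 fold changes were below 0, as were 58.4% of those of all tested genes. This direction was not the same for each gene under every scaling, since egg-2 and egg-3 were above 0 after quantile normalization and egg-2 in the voom fit. The median over the 10 genes was -0.44, beside -0.13 over all tested genes, and 9 of the 10 lay below that all-gene median. Over 17 alternative settings of the processing the median of the 10 genes stayed below 0, but its size varied. Library weights brought it to -0.25. Leaving out WT Late replicate 1 or 2 gave -0.35 in each case. When replicate 2 was left out, 7 of the 10 genes remained below 0. The lowest median, -0.75, came from dropping WT Late replicate 4. The log2 fold changes are on the scale of rescaled FPKM plus a pseudocount of 0.5, which makes changes of low genes look smaller.

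**Figure D1:**
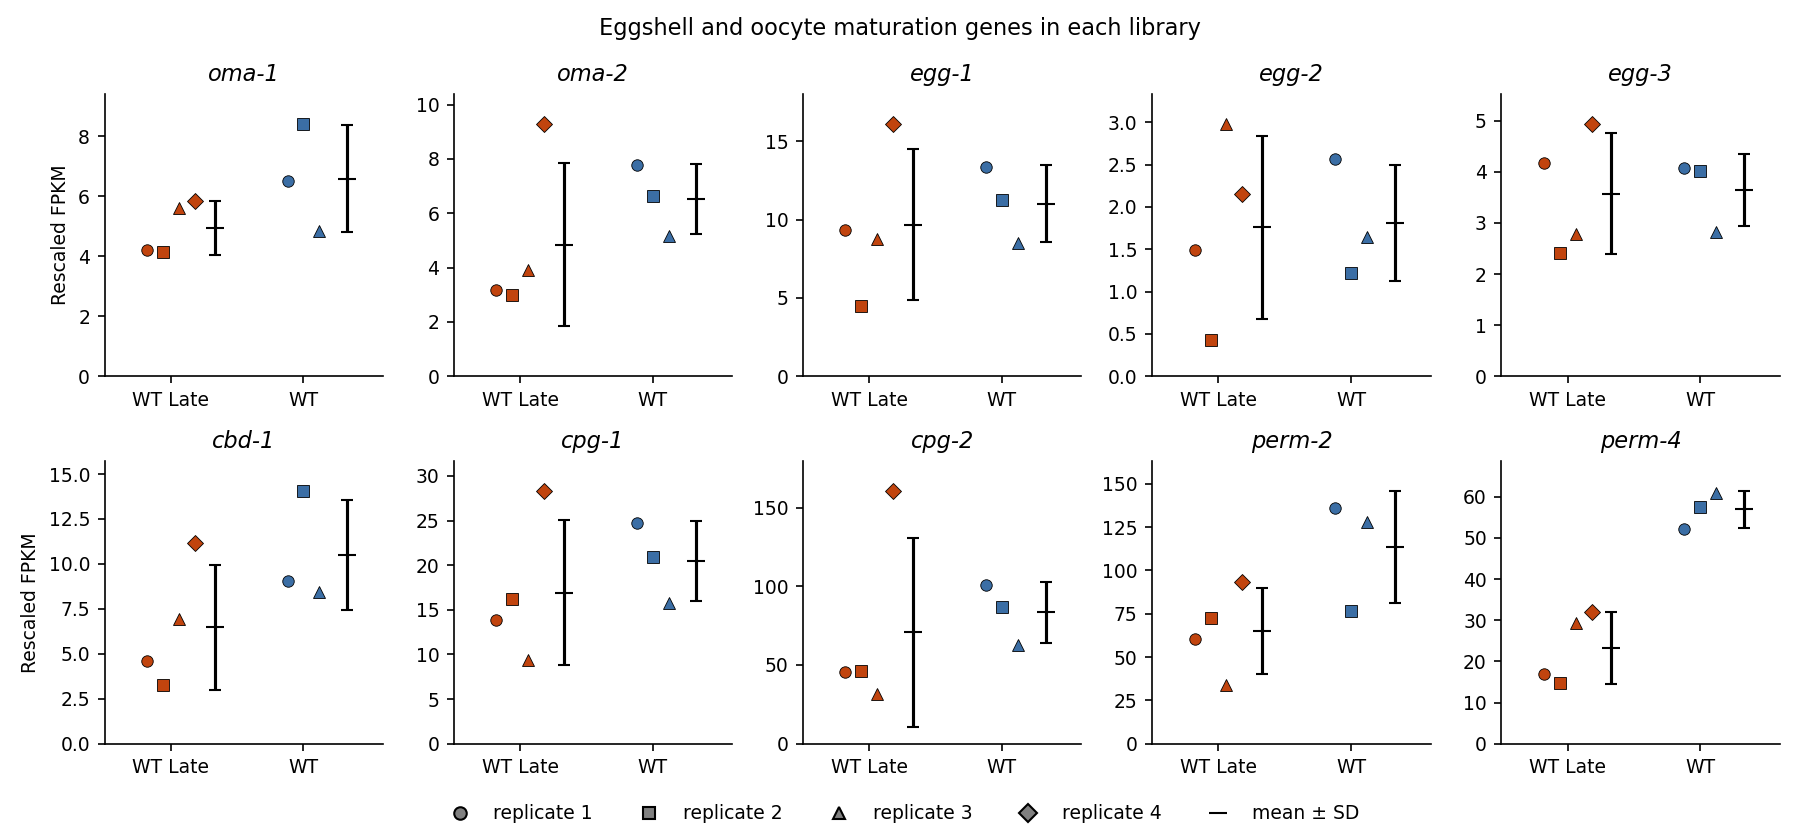
Rescaled FPKM (y axis, linear from 0, scaled per panel) of the 10 genes in 4 WT Late and 3 WT libraries, with the mean and SD beside each group and a marker shape per replicate. The groups lie apart only for perm-4, between 14.8 and 31.9 in WT Late and between 52.2 and 61.0 in WT.

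The genes perm-2 and perm-4 encode proteins of the vitelline layer, the outermost layer of the shell, and their loss makes the egg permeable. The gene perm-4 (WBGene00016638) lies on chromosome IV from 1121457 to 1125107 on the minus strand and has 4 exons. Positions are those of the deposited table, whose genome build no source used here names, and exon numbers are from the Ensembl annotation of WBcel235. Its rescaled FPKM was 16.8, 14.8, 29.4 and 31.9 in WT Late replicates 1 to 4, against 52.2, 57.5 and 61.0 in WT replicates 1 to 3. All WT Late values of rescaled FPKM were under all WT values, a separation in the lower direction found for 5.09% of all tested genes. In reads the groups overlapped, with 361, 268, 1460 and 378 in WT Late replicates 1 to 4 and 1080, 1530 and 1589 in WT. WT Late replicate 3 was above WT replicate 1 in reads, with fewer reads on genes in all (17647347 against 19484976). The means of the rescaled FPKM were 23.2 ± 8.65 (SD, n = 4) in WT Late and 56.9 ± 4.41 (SD, n = 3) in WT. The log2 fold change was -1.35 (standard error 0.36, 95% interval -2.14 to -0.56), with an unadjusted p of 0.00296 and an adjusted p of 0.172 from limma. For perm-4 an exact permutation test (two-sided, 35 arrangements) gave p = 0.0286, which is the lowest value this design can reach. The difference thus did not pass the adjustment over all genes. It passed without WT Late replicate 3, with an adjusted p of 0.023, where 2.23% of all tested genes were called lower, and with library weights, with an adjusted p of 0.00824, where 4.23% were. The library weight of WT Late replicate 3 was the lowest, 0.1945 beside 0.4826 to 2.335, so both settings discount that library. The log2 fold change of perm-4 lay between -1.52 and -1.15 under all 17 alternative settings, none of which scaled by reads on genes alone.

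The gene perm-2 (WBGene00016636) is the neighbour of perm-4, on the plus strand of chromosome IV from 1126790 to 1128848, so that the pair start back to back with 1682 bases between them. It has 5 exons. Its rescaled FPKM was 60.4, 72.5, 34.1 and 93.5 in WT Late replicates 1 to 4, against 136, 76.6 and 128 in the WT libraries. WT Late replicate 4 was above WT replicate 2, so the groups overlapped. The log2 fold change of perm-2 was -0.84 (95% interval -1.74 to 0.06, adjusted p = 0.599 from limma). The order of the libraries differed between the neighbours, since the lowest value of perm-2 was in WT Late replicate 3 and the lowest of perm-4 in WT Late replicate 2.

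The gene cbd-1 (WBGene00010351) encodes a chitin-binding protein of the vitelline layer. It lies on chromosome IV on the plus strand, from 11372991 to 11377627, and has 10 exons. Its rescaled FPKM was 4.58, 3.27, 6.92 and 11.2 in WT Late replicates 1 to 4, against 9.03, 14.0 and 8.42 in WT. The first 3 WT Late libraries were below every WT library and the fourth was within the WT range. For cbd-1 the log2 fold change was -0.75 (95% interval -1.72 to 0.22, adjusted p = 0.674 from limma), which did not exceed the spread between libraries.

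The proteoglycans CPG-1 and CPG-2 bind chitin, carry chondroitin chains and form the inner layer of the shell. Both genes lie on chromosome III, cpg-1 (WBGene00000465) from 4489359 to 4491392 on the plus strand and cpg-2 (WBGene00015102) from 7102086 to 7103990 on the minus strand. The rescaled FPKM of cpg-2 was 45.3, 46.0, 31.9 and 160.3 in WT Late replicates 1 to 4, against 101, 86.9 and 62.6 in WT. WT Late replicate 4 held the highest value of all libraries and the other WT Late libraries the 3 lowest, so the SD in WT Late (60.0, n = 4) was close to the mean of 70.9. Its log2 fold change was -0.51 (95% interval -1.62 to 0.59, adjusted p = 0.816 from limma), and -1.01 without WT Late replicate 4. For cpg-1 the values were 13.9, 16.2, 9.35 and 28.3 in WT Late and 24.7, 20.9 and 15.8 in WT. The same library was again highest, and the log2 fold change of cpg-1 was -0.35 (95% interval -1.22 to 0.52, adjusted p = 0.845 from limma).

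The genes egg-1 and egg-2 encode similar LDL receptor repeat proteins of the oocyte surface that act in fertilization, and egg-3 encodes a protein tyrosine phosphatase-like protein of the oocyte cortex that acts in egg activation. They lie on chromosome III from 5728180 to 5730159 (egg-1, WBGene00015083, plus strand) and from 7058516 to 7060597 (egg-2, WBGene00019811, minus strand), and on chromosome II from 10882408 to 10884462 (egg-3, WBGene00009701, minus strand). The rescaled FPKM of egg-1 was 9.31, 4.51, 8.77 and 16.1 in WT Late replicates 1 to 4, against 13.3, 11.2 and 8.48 in WT. For egg-3 it was 4.17, 2.41, 2.78 and 4.94 in WT Late and 4.08, 4.02 and 2.83 in WT. In both genes the WT Late libraries reached below and above the WT range. The log2 fold change was -0.28 for egg-1 (95% interval -1.22 to 0.65) and -0.06 for egg-3 (95% interval -0.98 to 0.86), with adjusted p-values of 0.882 and 0.980 from limma.

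The lowest of the 10 genes was egg-2. It had 50, 12, 232 and 40 reads in WT Late replicates 1 to 4 and 83, 51 and 67 in WT. The 12 reads in WT Late replicate 2 carry a 95% Poisson interval of 6.20 to 21.0, which covers counting error only. Its rescaled FPKM was 1.49, 0.424, 2.98 and 2.15 in WT Late and 2.56, 1.22 and 1.64 in WT. WT Late held both the lowest and the highest value, and the log2 fold change of egg-2 was -0.15 (95% interval -1.32 to 1.03, adjusted p = 0.961 from limma). Reads of egg-1 and egg-2 could have been split between them in counting, and the ends of egg-1, egg-2 and egg-3 overlap B0244.9, R01H2.2 and lurp-1 on the opposite strand by 42, 11 and 20 bases.

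The genes oma-1 and oma-2 encode similar CCCH zinc finger RNA-binding proteins that act redundantly in oocyte maturation. The gene oma-1 (WBGene00003864) lies on chromosome IV from 8888976 to 8890999 and oma-2 (WBGene00003865) on chromosome V from 8029439 to 8031214, both on the plus strand with 6 exons. The rescaled FPKM of oma-1 was 4.20, 4.15, 5.59 and 5.84 in WT Late replicates 1 to 4, against 6.51, 8.42 and 4.85 in WT. That of oma-2 was 3.17, 2.99, 3.90 and 9.29 in WT Late and 7.76, 6.64 and 5.17 in WT. For oma-2, WT Late replicate 4 was above all WT libraries and the other WT Late libraries below all of them. The log2 fold changes were -0.37 for oma-1 (95% interval -1.19 to 0.46) and -0.52 for oma-2 (95% interval -1.50 to 0.47), with adjusted p-values of 0.830 and 0.789 from limma.

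**Figure D2:**
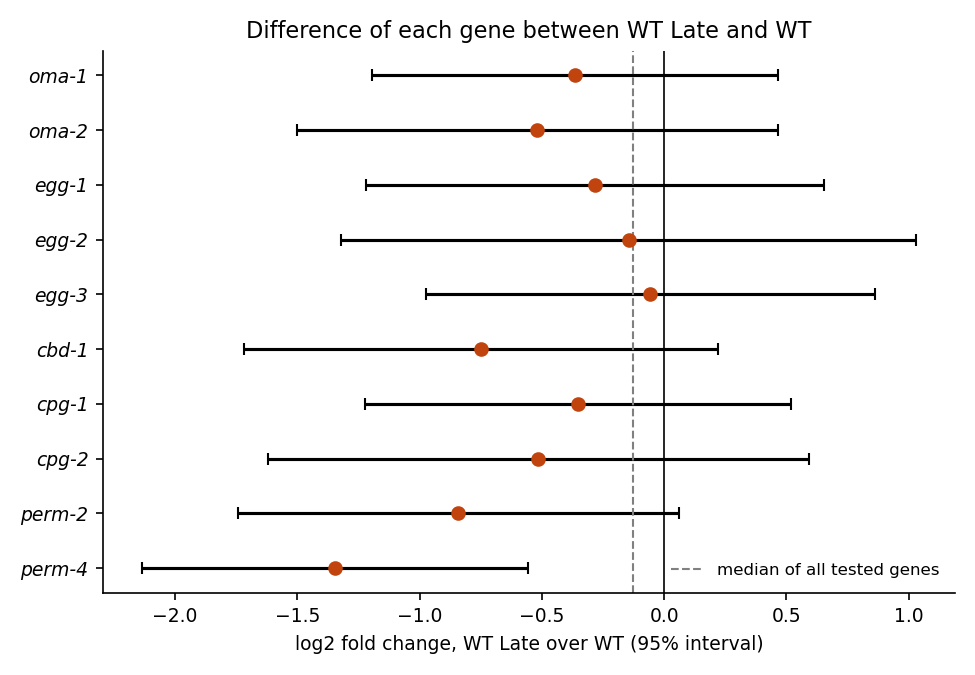
Log2 fold change of WT Late over WT for each gene (points) with its 95% interval (bars) from limma, with n = 4 and n = 3 libraries. The interval of perm-4, -2.14 to -0.56, is the one that does not reach 0, and the dashed line marks the median of all tested genes at -0.13.

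Libraries of the same group differed in these genes. Relative to the WT mean on the log2 scale, the median of the 10 genes was -0.71, -0.91, -0.60 and 0.32 in WT Late replicates 1 to 4, against 0.27, 0.05 and -0.30 in WT replicates 1 to 3. For all tested genes the same medians lay between -0.26 and 0.07 over the 7 libraries. In WT Late replicate 1, 9 of the 10 genes were below their WT mean, where 53.8% of all tested genes were, in replicate 2 all 10, where 59.0% were, and in replicate 3 again 9, where 47.0% were. In WT Late replicate 4, 3 of the 10 were below, oma-1, perm-2 and perm-4, where 54.7% of all tested genes were. In rescaled FPKM, WT Late replicate 4 held the highest WT Late value for 9 of the 10 genes, against 23.5% of all tested genes, the exception being egg-2. This ranking depended on the scaling. In reads, every gene of the 10 but cpg-2 was highest among the WT Late libraries in replicate 3. For cbd-1 these were 1269 reads in replicate 3 and 489 in replicate 4, and for oma-1 438 and 109. Reads on genes were 17647347 in replicate 3 and 18103387 in replicate 4. With WT Late replicate 4 left out, 5 of the 10 genes had all WT Late values under all WT values, namely cbd-1, cpg-2, perm-2, perm-4 and oma-2, against 8.41% of all tested genes. None of the 10 was then called, and the adjusted p of perm-4 was 0.144 from limma. WT replicate 3 held the lowest WT value for 7 of the 10, against 29.2% of all tested genes.

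**Figure D3:**
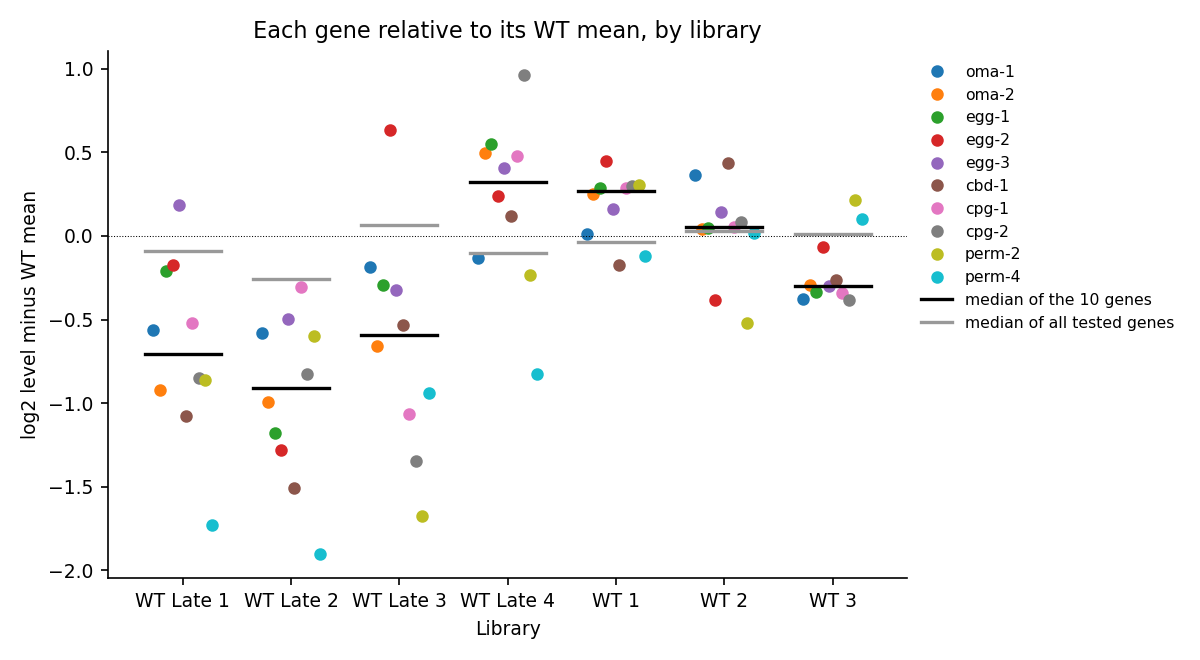
Log2 of rescaled FPKM plus 0.5 minus the WT mean of the same gene (y axis) in each library (x axis), 1 point per gene, with the median of the 10 genes in black and of all tested genes in grey. WT Late replicates 1, 2 and 3 have medians between -0.91 and -0.60, and WT Late replicate 4 a median of 0.32.

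The genes moved together over the libraries to different degrees. Over the 45 pairs of the 10 genes, Pearson correlations of the log2 values across the 7 libraries, which hold both groups, had a median of 0.58, and 43 were above 0. The highest was between cpg-1 and cpg-2 (0.96), followed by cpg-2 with oma-2 (0.91) and cbd-1 with oma-1 (0.88). The lowest was between egg-2 and perm-2 (-0.06). All libraries enter each value, so differences between libraries in depth and composition are shared by the pairs. Of 6133 other genes with a median rescaled FPKM of at least 5, those most like the mean profile of the 10 genes were Y38E10A.22 (r = 0.99), Y63D3A.8 (r = 0.98), puf-11 (r = 0.96), C01G8.1 (r = 0.95) and maph-1.2 (r = 0.95), over the 7 libraries. Correlations above 0.9 were found for 0.603% of the 6133 genes. For Y38E10A.22 the values lay between 5.55 and 11.7 in WT Late and between 9.51 and 11.8 in WT, and its log2 fold change of -0.55 was not called (adjusted p = 0.721 from limma).

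The ratio of similar genes was taken within each library from the deposited FPKM plus the pseudocount, so that the median-of-ratios factor does not enter. The pseudocount keeps the scale of the deposited FPKM from cancelling in full, most of all for the low egg-2. The log2 ratio of oma-1 over oma-2 was 0.35, 0.41, 0.48 and -0.62 in WT Late replicates 1 to 4, against -0.24, 0.32 and -0.08 in WT. For cpg-1 over cpg-2 it was -1.67, -1.48, -1.73 and -2.48 in WT Late, against -2.01, -2.03 and -1.95 in WT. The WT libraries were close together (SD 0.042, n = 3), and the WT Late libraries lay on both sides of them. The log2 ratio of egg-1 over egg-2 was 2.27, 2.43, 1.45 and 2.61 in WT Late and 2.18, 2.78 and 2.06 in WT. Without the pseudocount, the FPKM ratio of this pair in WT Late replicate 2, 10.6, was the highest of the 7 libraries. The differences of WT Late minus WT in log2 ratio with the pseudocount were 0.16 for the oma pair, 0.16 for the cpg pair and -0.15 for the egg pair. Two-sided exact permutation tests gave p = 0.657, 0.6 and 0.8, each 0.8 after Benjamini-Hochberg adjustment over the 3 pairs. Over all 7 libraries a difference between groups was not detectable against this spread. Without WT Late replicate 4 the WT Late ratios of the oma pair and of the cpg pair were all above the WT ratios, with differences of 0.42 and 0.37, each at p = 0.1 in the exact permutation test, the lowest value that 3 libraries against 3 can reach. Leaving out other libraries gave differences between 0.04 and 0.32 for the oma pair and between 0.04 and 0.18 for the cpg pair.

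**Figure D4:**
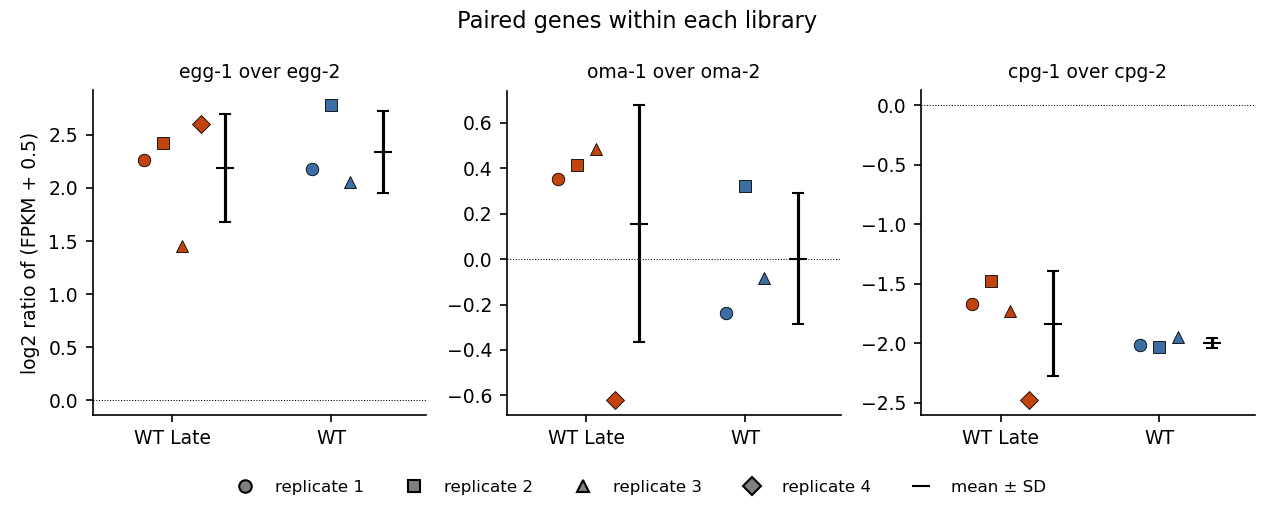
Log2 ratio of deposited FPKM plus 0.5 within each library (y axis) for egg-1 over egg-2, oma-1 over oma-2 and cpg-1 over cpg-2, by group, with the mean and SD beside the points and a marker shape per replicate. WT Late replicate 4 lies apart from the other WT Late libraries for oma-1 over oma-2, at -0.62.

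Other genes of the eggshell and its barrier gave no call. Of 14 such genes tested, 0 were called in either direction (limma), 0 had an unadjusted p under 0.05, 6 had a log2 fold change above 0 and 8 below, with a median of -0.18, which became -0.06 or 0.04 when WT Late replicate 1 or 2 was left out. The lowest were pod-2 (-1.02), which encodes acetyl-CoA carboxylase, chs-1 (-0.94), which encodes a chitin synthase, and fasn-1 (-0.60), which encodes fatty acid synthase. For pod-2 the rescaled FPKM was 30.4 ± 15.9 (SD, n = 4) in WT Late and 57.9 ± 23.2 (SD, n = 3) in WT, with an adjusted p of 0.576 from limma. The gene chs-1 was low, at 0.219, 0, 1.83 and 0.198 in WT Late replicates 1 to 4 and 1.29, 1.63 and 0.741 in WT, and at such levels the pseudocount sets much of the log2 value. The highest were emb-8 (0.34), a cytochrome P450 reductase gene, egg-4 (0.30), an egg activation gene, and cpg-4 (0.18), a chondroitin proteoglycan gene. Each of the 14 had overlapping groups.

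Of 28 other oocyte and maternal genes, which hold RNA-binding proteins, cell cycle kinases and cyclins, 0 were called in either direction (limma) and 3 had an unadjusted p under 0.05. The median log2 fold change was -0.38, with 9 above 0 and 19 below, and it became -0.14 or -0.61 when WT Late replicate 2 or 4 was left out and -0.24 when WT replicate 2 was. The 3 were lin-41 (-1.23), puf-7 (-1.06) and mex-5 (-0.92), which encode regulators of messenger RNA in oocytes and early embryos. The rescaled FPKM of mex-5 was 5.55, 4.68, 10.996 and 11.03 in WT Late replicates 1 to 4, against 13.7, 17.8 and 13.1 in WT, with an adjusted p of 0.515 from limma. The rescaled FPKM of lin-41 was low, at 0.300, 0, 1.43 and 1.21 in WT Late replicates 1 to 4 and 1.84 to 2.29 in WT. For puf-7 it was 0.710 to 2.42 in WT Late and 3.17 to 4.22 in WT, so in both genes the pseudocount weighs on the log2 value. In lin-41, puf-7 and mex-5 all WT Late values were under all WT values. Among all tested genes 5.09% were apart in that direction and 4.81% were lower at an unadjusted p under 0.05, so 3 of 28 on either count is a description and was not tested as a set. The gene wee-1.3, which encodes a kinase that restrains oocyte maturation, was at -0.99, and its groups overlapped. The highest were cdk-1 (0.56), mei-2 (0.50) and air-2 (0.41), genes of the cell cycle and the meiotic spindle. The yolk receptor gene rme-2 was at 11.4 ± 5.84 (SD, n = 4) in WT Late and 10.97 ± 1.40 (SD, n = 3) in WT, with a log2 fold change of -0.06.

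The other germ cell stages and the somatic tissues of the animal were read beside these genes. All 10 germ cell genes had a log2 fold change below 0, as did 58.4% of all tested genes, with a median of -0.95. In either direction 0 were called (limma). At an unadjusted p under 0.05, 2 of them were lower, gld-1 and nos-3 (both -1.74), against 4.81% of all tested genes. For gld-1 (adjusted p = 0.216 from limma) all WT Late values were under all WT values, as for 5.09% of all tested genes. For nos-3 the groups overlapped. The summed rescaled FPKM of the germ cell genes was between 36.0 and 125 in WT Late and between 94.6 and 242 in WT. Of 20 meiotic chromosome genes, 0 passed the adjusted threshold (limma) and 0 had an unadjusted p under 0.05, with a median of -0.27 and sums of 54.4 to 236.5 in WT Late and 67.5 to 130.3 in WT. Of 20 sperm genes 17 were tested, with 0 called, 1 at an unadjusted p under 0.05, a median of -0.71 and sums of 229 to 354 in WT Late and 265 to 512 in WT. Somatic gonad genes, 6 of 7 tested, had a median of -0.32 and sums of 9.87 to 20.1 in WT Late and 14.4 to 20.4 in WT, with 0 called and 0 at an unadjusted p under 0.05. In WT Late replicate 2, 10 sperm genes, 7 meiotic chromosome genes, 2 germ cell genes and 2 somatic gonad genes were at 0, against at most 4, 1, 0 and 1 in any other library. No gene of these lists was at 0 in all libraries. Leaving out 1 library moved these medians. The germ cell median was -0.57, the sperm median -0.40, the meiotic median -0.06 and the somatic gonad median -0.11 without WT Late replicate 2. The meiotic median was also -0.12, -0.79 and -0.15 without WT Late replicates 1, 3 and 4, and -0.09 and -0.56 without WT replicates 2 and 3, and the somatic gonad median -0.49 and -0.17 without WT replicates 1 and 2.

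Messages of sperm were abundant in all libraries. The 35 genes with msp symbols encode major sperm proteins, are near-identical copies whose single values are uncertain, and were added after the data had been seen. Of the 35, 33 were tested, 0 passed the adjusted threshold and 0 an unadjusted p under 0.05 (limma), with a median log2 fold change of -0.38. It became 0.04 or -0.74 when WT Late replicate 3 or 4 was left out, and -0.20 or -0.67 when WT replicate 1 or 3 was. Their summed rescaled FPKM was 5853, 9280, 2863 and 16532 in WT Late replicates 1 to 4, against 12114, 11104 and 5996 in WT, while the sum of the 10 eggshell and oocyte maturation genes was 163, 167, 136 and 363 in WT Late and 357, 287 and 299 in WT. Both sums were highest in WT Late replicate 4 and lowest in WT Late replicate 3, the libraries with the highest and lowest share of ribosomal protein reads. The size behind the deposited FPKM, 0.675 and 1.79 times the reads on genes in these libraries, cancels in rescaled FPKM. The part of the difference in ribosomal protein share in the values of the 10 genes was not tested.

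Yolk protein genes, which are expressed in the intestine and whose products are taken up by oocytes, gave the calls of these lists. Of the 6, 5 were lower, vit-1 (-4.11), vit-4 (-3.86), vit-3 (-3.83), vit-5 (-3.24) and vit-6 (-2.48), and vit-2 (-2.34) had an adjusted p of 0.0686 (limma). The call of vit-6, called at an adjusted p of 0.0492 (limma), did not hold in 9 of 17 alternative settings, among them those without WT Late replicate 1 or 2 or any 1 WT library (adjusted p between 0.0641 and 0.312), and that of vit-5 in 3, among them those without WT replicate 1 (0.0713) or 3 (0.0578). Summed rescaled FPKM was between 153 and 389 in WT Late and between 818 and 2531 in WT. The yolk sums did not overlap between the groups, whereas the sums of the 10 eggshell and oocyte maturation genes did. The difference between these lists was not tested. In the remaining lists, of 5 intestine, 5 body wall muscle and 4 late L4 and adult cuticle genes, 0 were called (limma), with 0, 1 and 1 at an unadjusted p under 0.05 and medians of -0.42, -0.36 and -0.20. These medians rested on single libraries. With WT Late replicate 3 left out they came to 0.13, 0.04 and -0.04. With WT Late replicate 4 left out they came to -0.74, -0.65 and -0.41, and with WT replicate 3 left out to -0.24, -0.22 and -0.02. The cuticle median was also 0.04 with library weights, -0.34 and -0.01 without WT Late replicates 1 and 2 and -0.40 without WT replicate 2. Their sums ranged from 508 to 3008, 825 to 3502 and 345 to 1334 in WT Late and from 1343 to 2599.5, 1835 to 2899.6 and 651 to 1762 in WT, each lowest in WT Late replicate 3. The cuticle gene at an unadjusted p under 0.05 was bli-2, which was higher in WT Late (log2 fold change 1.34, adjusted p = 0.250 from limma). The muscle gene was myo-3, which was lower (-1.04, adjusted p = 0.331 from limma).

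**Figure D5:**
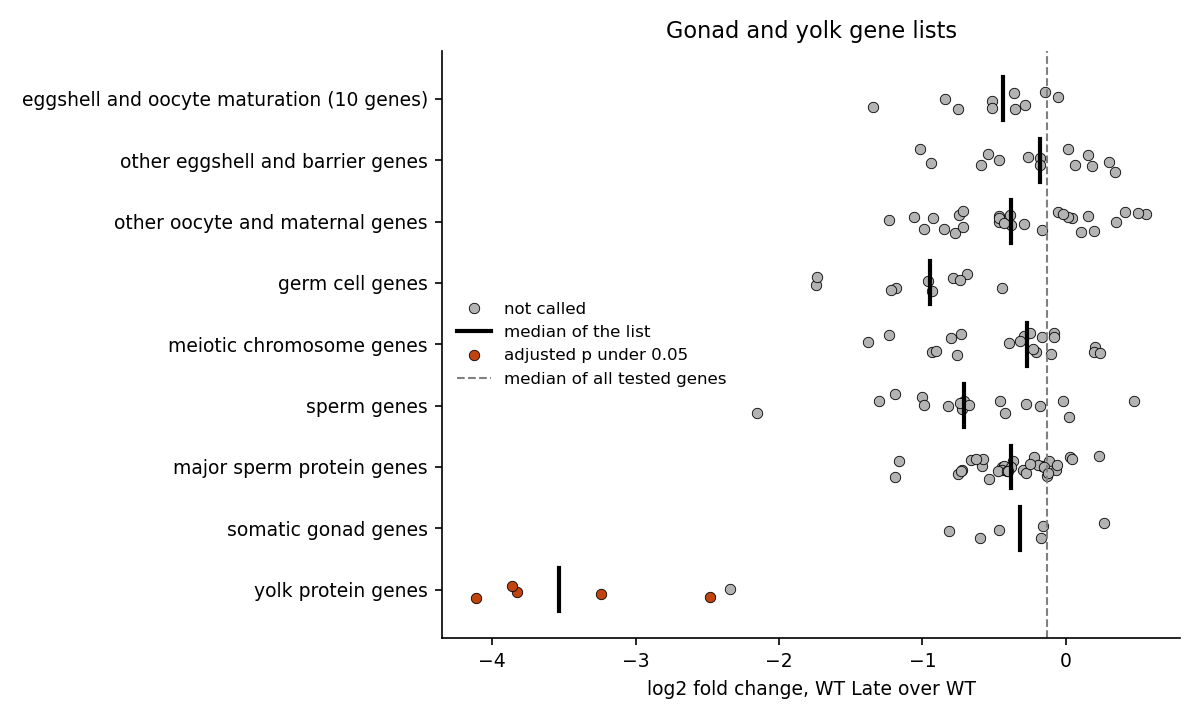
Log2 fold change of WT Late over WT (x axis) for each tested gene of 9 lists (points), with the median of each list as a black bar and of all tested genes as a dashed line. Filled red points are genes with an adjusted p under 0.05 from limma, all of them yolk protein genes, whose median was -3.54 beside -0.44 for the 10 eggshell and oocyte maturation genes.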

How the data were processed

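RNA was extracted from whole L4 animals of N2, 4 WT Late and 3 WT libraries that the labels name as biological replicates. The paper gives its RNAseq N as 3, so 1 of the 4 WT Late libraries, all of which were used here, may not be in its comparison. Nothing says whether they came from separate cultures, so p-values measure the spread between these samples. The authors deposited one table of FPKM per gene, reported by a sequencing service. The sources used here do not name the aligner, counter, strand setting or build. Whole reads were recovered from FPKM and gene length within 0.02 of a whole number.

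Libraries were scaled by median-of-ratios factors computed from the deposited FPKM, which replace its size per library, and log2 values were taken after adding 0.5. Of 46778 genes, the 13194 that reached an FPKM of 0.5 in 3 or more libraries were tested with limma 3.58.1 in R 4.3.3 (moderated with a variance trend) and Benjamini-Hochberg adjustment, called at an adjusted p under 0.05. Single genes and gene pairs were also compared by two-sided exact permutation tests (35 arrangements). Alternatives changed the scaling, pseudocount, filter, variance trend, library weights, test, replicate block and each library in turn. None scaled by reads on genes alone. The median of all tested genes was -0.13.

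The 10 genes and the lists of other genes were chosen with earlier results of these data known. Named besides the 10 genes are the 3 largest log2 fold changes in each direction among the other eggshell and the other oocyte genes, called genes of the other lists, and the 5 genes most correlated with the mean profile. The genes mex-5, rme-2, gld-1, nos-3, vit-2, bli-2 and myo-3 were named after their values were seen.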

Additional observations from a re-analysis of the deposited data

Results flagged for a closer look

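In 5 of 25 sets of WT Late values, 1 library lay far from the other 3 by Dixon's ratio, the gap to the nearest library over the range, which passed the 95% critical value for 4 samples, as chance does in about 1 of 20 sets. WT Late replicate 4 was high for cpg-2 (ratio 0.890), for oma-2 (ratio 0.856) and for the summed rescaled FPKM of the 10 genes (ratio 0.861), and low for the log2 ratio of oma-1 over oma-2 (ratio 0.880). These 4 sets share genes and are not independent. In reads, cpg-2 was still highest among the WT Late libraries in replicate 4 (2875), but oma-2 was highest in replicate 3 (262, against 149 in replicate 4). WT Late replicate 3 was high for the summed rescaled FPKM of the meiotic chromosome genes (ratio 0.922), at 236.5, against 54.4 to 68.6 in the other WT Late libraries.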

How the results depend on the processing

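The median log2 fold change of the 10 genes was below 0 in all 17 alternatives, between -0.75 without WT Late replicate 4 and -0.25 with library weights. With library weights 1 of the 10 genes was called (perm-4), and leaving out 1 library gave 0 to 1. With all WT Late values under all WT values were 2 genes after quantile normalization (perm-2 and perm-4), beside 5.91% of all tested genes, and 1 to 5 when a library was left out, beside 6.05% to 18.6%. The 18.6% was without WT Late replicate 3, where 1 of the 10 was apart, and the 5 were without WT Late replicate 4, beside 8.41%. Among all tested genes, 88 were higher in WT Late and 24 lower. Higher were 42 with no filter, 500 with library weights and 23 to 361 without 1 library. Lower were 43 after quantile normalization, 9 with no filter, 558 with library weights and 5 to 282 without 1 library. The median of the other eggshell genes lay between -0.23 and 0.040 without 1 library. Signs of values that were never called turned for egg-1 (-0.56 to 0.030 without 1 library), for egg-2 (0.26 after quantile normalization, 0.047 with voom, and -0.40 to 0.24 without 1 library), for egg-3 (0.061 after quantile normalization, 0.21 with library weights, and -0.21 to 0.10 without 1 library) and for the egg-1 over egg-2 ratio (-0.29 to 0.10 without 1 library). The cause was not tested. The median of all tested genes was -0.01 after quantile normalization.

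Deviations of each gene from its group mean were correlated between libraries of the groups. Same-numbered libraries had correlations of 0.237, -0.0917 and -0.185, and the other pairs lay between -0.326 and 0.314. Such deviations cancel within each group, so their correlations take both signs. These values therefore do not settle whether the numbers pair the libraries. With the replicate block 0 of the 10 genes were called, their median was -0.74, perm-4 was at -1.52 (adjusted p = 0.194 from limma), and 67 genes were higher and 32 lower. Only WT Late has a replicate 4, so that library adds nothing to the comparison of groups under the block. The log2 fold changes are thus nearly those without WT Late replicate 4 (median -0.746, perm-4 -1.524) and are not a separate check of them. Depth limits egg-2 most, with 12 reads in WT Late replicate 2.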
